A study of Mus musculus with 2 samples.

Results

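Hox genes encode homeodomain transcription factors that give cells their position along the head-to-tail axis of the embryo. In mammals they lie in 4 clusters, and within a cluster the genes are transcribed from the same strand in the order of their numbers, with low-numbered (anterior) genes switched on earlier and further forward in the embryo than high-numbered (posterior) ones. Where they are silent, Hox clusters are classic targets of Polycomb repression, and CTCF, a zinc finger protein that bounds chromatin loops, divides their active and silent sections. In the thymus, Hoxa3 is known from mouse knockouts to be needed for the organ to form, and several other Hox genes are known for roles in blood progenitors.

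The genes were all protein-coding genes of the mouse annotation whose symbol is Hoxa, Hoxb, Hoxc or Hoxd followed by a number. This gave 39 of 21853 protein-coding genes, 11 in the Hoxa cluster, 10 in Hoxb, 9 in Hoxc and 9 in Hoxd. On mm10 (GRCm38) the Hoxa cluster spans chr6:52155590-52260880, Hoxb chr11:96194316-96368256, Hoxc chr15:102921103-103036852 and Hoxd chr2:74668310-74765142, 491.8 kb in all. Hoxa genes are on the minus strand, and the others on the plus strand.

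Open chromatin had been mapped by DNase-seq, in which DNase I cuts accessible DNA, in the whole thymus of healthy newborn B6NCrl mice (day 0 after birth, both sexes pooled). There was 1 group, untreated as far as the labels say, of 2 biological replicates that share a donor label and differ in biosample, so the spread between them may be partly technical. Each replicate has its own list of 150-bp peaks with a score from 1 to 150, whose meaning the sources used here do not give, and its own list of wider enriched regions called hotspots. Sequencing depth is unknown, there is no second condition, and 2 samples of 1 group allow no test, so all values are descriptions. In a whole organ, a site open in fewer cells and a site less open in each cell cannot be told apart.

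Peaks of replicate 1 that overlapped one of replicate 2 by 1 bp or more are called shared. Over the genome 67.3% of replicate 1 peaks and 74.8% of replicate 2 peaks overlapped the other list. Markers matched the labelled tissue: all 10 thymocyte genes checked (among them Cd4, Cd8a, Rag1 and Lck) had a shared peak at the promoter. The share over all coding genes was 61.7%. Of 5 thymic epithelium genes Aire alone had one (113 in replicate 1 and 106 in replicate 2) and Foxn1 had none. Markers of other cells were open as well, with a shared promoter peak at 3 of 4 mesenchyme genes, including Pdgfra (110 and 106), and at 2 of 3 endothelium genes, including Pecam1 (113 and 110). The part of these cell types in the Hox peaks was not tested.

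Below are the sequences of 5 shared peaks from the 4 clusters, chosen because they are among the strongest of their cluster, or are the peak nearest to the main start of Hoxa3, and overlap no annotated exon. Each is the 150 bp of the replicate 1 peak, read from the GRCm38 genome on the strand of Hox transcription. Capitals mark a match to the CTCF consensus searched for (CC, any 3 bases, AG, any 2 bases, GGC) or, where there is none, to the CCAAT box (ATTGG when it lies on the opposite strand), and a peak in lower case alone has neither.
Hoxa4 promoter, chr6:52191896-52192045, minus strand: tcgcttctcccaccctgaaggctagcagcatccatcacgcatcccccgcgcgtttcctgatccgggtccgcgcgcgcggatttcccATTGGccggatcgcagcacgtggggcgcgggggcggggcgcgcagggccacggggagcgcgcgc
between Hoxa6 and Hoxa7, in an intron of Hoxa3, chr6:52211676-52211825, minus strand: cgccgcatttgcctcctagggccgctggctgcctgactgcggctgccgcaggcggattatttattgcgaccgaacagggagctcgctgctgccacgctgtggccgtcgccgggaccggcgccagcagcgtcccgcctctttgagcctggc
between Hoxb9 and Hoxb8, chr11:96278876-96279025, plus strand: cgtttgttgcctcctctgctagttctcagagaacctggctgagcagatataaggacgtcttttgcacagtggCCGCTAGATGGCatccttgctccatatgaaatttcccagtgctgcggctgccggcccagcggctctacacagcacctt
between Hoxc9 and Hoxc8, chr15:102987516-102987665, plus strand: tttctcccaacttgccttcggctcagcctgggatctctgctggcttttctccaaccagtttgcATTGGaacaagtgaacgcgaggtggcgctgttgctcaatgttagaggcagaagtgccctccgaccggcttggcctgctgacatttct
between Hoxd9 and Hoxd8, chr2:74702336-74702485, plus strand: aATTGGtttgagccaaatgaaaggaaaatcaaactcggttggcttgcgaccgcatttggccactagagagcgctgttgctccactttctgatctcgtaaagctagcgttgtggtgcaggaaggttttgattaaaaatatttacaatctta

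The site in all 7 shared cluster peaks with the CTCF consensus is given with 9 bases on each side, since these peaks are named in the results that follow. Each is read on the strand of the match, and capitals mark the consensus.
Hoxa7 promoter, chr6:52221800-52221829, minus strand: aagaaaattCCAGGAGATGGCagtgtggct
Hoxa10 promoter, chr6:52240532-52240561, minus strand: tcgcagccgCCACGAGATGGCgcactcccg
between Hoxb13 and Hoxb9, chr11:96261744-96261773, minus strand: cgcgaccgaCCTCTAGGCGGCgccctggcg
between Hoxb9 and Hoxb8, chr11:96278939-96278968, plus strand: gcacagtggCCGCTAGATGGCatccttgct
Hoxb5 promoter, chr11:96303236-96303265, plus strand: cgtcaatcgCCGGGAGGTGGCgcgctctgc
between Hoxd13 and Hoxd12, chr2:74673169-74673198, minus strand: gccaaacgcCCAGGAGATGGCgagcgtgct
between Hoxd8 and Hoxd4, chr2:74715912-74715941, plus strand: gagctttgtCCAGGAGGAGGCgctgtagga

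Most Hox promoters had no peak in newborn thymus. A promoter peak was one with its midpoint no more than 1000 bp from the transcription start (TSS) of a coding transcript, and 11 of 39 Hox genes (28.2%) had a shared one. The background share was 61.7% of all 21853 protein-coding genes. With a window of 2500 bp the Hox count was 19, beside 65.3% of all coding genes, and the 8 genes added were Hoxa3, Hoxb2, Hoxb6, Hoxb7, Hoxb8, Hoxd8, Hoxd10 and Hoxd12. Hox promoters are rich in CpG dinucleotides, a sequence class that is open in most tissues. A CpG-rich promoter (observed to expected CpG of at least 0.6 and GC content of at least 50% within 500 bp of a TSS) was found at 28 Hox genes, of which 8 had a shared peak, whereas the share among all CpG-rich genes was 91.8%. Of the 11 Hox genes without a CpG-rich promoter, 3 had a shared peak (Hoxb4, Hoxc5 and Hoxc10), beside a background of 31.6%.

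The other 28 Hox genes were mostly empty in both lists. Replicate 1 had a promoter peak at 14 Hox genes and replicate 2 at 13, beside 64.7% and 64.1% of all coding genes. For 24 Hox genes (61.5%) neither replicate had one. The matching share of all coding genes, with nothing in either replicate, is not given here for peaks or for hotspots. Hoxa2, a hindbrain patterning gene, had a promoter peak in replicate 1 alone, with a score of 32, and so did Hoxc9, with 33. Hoxb13, a posterior gene known from prostate and hindgut, had one in replicate 2 alone, with 26. Hoxd8 had peaks in both replicates that did not overlap, the strongest at 67 in replicate 1 and 55 in replicate 2. Counted by hotspots, 12 Hox genes had one in the promoter window in both replicates and 24 in neither, beside 62.8% of all coding genes with one in both.

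The grid of promoter scores shows that the genes with a peak were spread unevenly over clusters and paralog groups, which are the sets of genes with the same number. The Hoxa cluster held 6 of the 11 (6 of its 11 genes, 54.5%), against 2 of 10 in Hoxb, 2 of 9 in Hoxc and 1 of 9 in Hoxd. The share over all coding genes was 61.7%, so no cluster lay above it. The clusters also differ in CpG content, with CpG-rich promoters at 11 genes in Hoxa, 5 in Hoxb, 5 in Hoxc and 7 in Hoxd. Over all coding genes the share was 91.8% with such a promoter and 31.6% without one. The part of CpG content in these counts was not tested. By position in the cluster, 4 of 12 genes of paralogs 1 to 4, 4 of 11 genes of paralogs 5 to 8 and 3 of 16 genes of paralogs 9 to 13 had a shared promoter peak. These shares of 33.3%, 36.4% and 18.8% were all below the 61.7% of all coding genes. Paralog group 5 was the only one in which each member had one (Hoxa5, Hoxb5 and Hoxc5), and groups 2, 3, 6, 8, 9, 11 and 12 had none.

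Among the anterior genes, Hoxa4 had one of the strongest promoter peaks of all Hox genes, with scores of 98 in replicate 1 and 101 in replicate 2, 218 bp upstream of its TSS. Hoxb4, known for expanding blood stem cells when overexpressed, had a weak peak of 34 and 52 in its 5′ untranslated region, 364 bp downstream of the TSS at chr11:96318556-96318705. The peak at Hoxd1 (chr2:74762896-74763045) was weak in both replicates, with 36 and 32. Hoxa3, the member known for thymus formation, had no promoter peak in either replicate. The shared peak nearest to its main TSS, that of the transcript with the longest coding sequence, lay 1364 bp inside the gene and scored 108 in replicate 1 and 86 in replicate 2. It is the second sequence printed above, chosen after its values were seen. Since the longest Hoxa3 transcript starts between Hoxa6 and Hoxa7, this intron peak also lies between those genes. A weaker shared peak, with 53 and 46 at chr6:52172636-52172785, lay in an untranslated region of Hoxa3, outside the promoter windows.

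Among the central genes, Hoxa5, known for lung development, had a peak of 56 and 55, 44 bp upstream of its TSS at chr6:52204556-52204705. At Hoxb5, a gene known as a marker of blood stem cells in mouse, the peak scored 105 and 73, the widest gap between replicates among the Hox promoters. Hoxc5 had the weaker values of 52 and 35 at chr15:103013616-103013765. Hoxa7, a homeotic gene of the trunk, had 2 shared promoter peaks at different start sites. The one with the CTCF consensus scored 82 and 85 and the one at the main TSS 79 and 83, so they differed little within or between replicates.

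Among the posterior genes, Hoxa10, known in uterus and in blood progenitors, had a shared peak of 93 and 76 in its untranslated region, with the CTCF consensus. That peak lay at another start site of the gene, 5612 bp from the main TSS. Near the main TSS of Hoxa10 was a peak in replicate 1 alone, with a score of 54. Counted with 1 TSS per gene, Hoxa10 had no shared promoter peak. Hoxa13, which patterns the digits, hindgut and genitals, had one of the strongest Hox promoter peaks, with 100 and 99, at chr6:52260836-52260985, 30 bp upstream of a TSS. Hoxc10 had 70 and 63. Hoxa9, known for its role in blood progenitors and leukaemia, had no promoter peak in either replicate, nor did Hoxa11, Hoxc11 to Hoxc13 or Hoxd9 to Hoxd13.

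Hox promoter peaks that were present were weaker than is usual for promoters. The median score of the best shared promoter peak was 79 in replicate 1 and 64 in replicate 2 over 11 Hox genes, against 115 and 120 over all 13491 coding genes with one. Against all peaks of the same list, Hox promoter peaks lay between the weak and the strong, with scores above those of 30.3% to 91.3% of peaks. Across the 11 genes Spearman's rho between paralog number and the peak's mean standing in its lists was 0.490, over points that share libraries and neighbourhoods. Over the 14 genes with a promoter peak in replicate 1 it was 0.350, and over the 13 with one in replicate 2 it was 0.104, sets that add genes whose peak was not shared.

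Genes whose products act with Hox proteins or on Hox genes were mostly open at the promoter. The TALE homeodomain cofactors, which bind DNA together with Hox proteins, had a shared promoter peak at 8 of 9 genes, among them Pknox1 (138 and 140) and Meis1 (103 and 118). The exception was Meis2, whose peaks in the replicates did not overlap. Chromatin regulators of Hox genes had one at 20 of 20, including the Polycomb methyltransferase Ezh2 (137 and 138) and the activating methyltransferase Kmt2a (131 and 140). Other developmental homeobox genes had one at 18 of 37 (48.6%), and the related Cdx and ParaHox genes at 2 of 6 (Gsx1 and Pdx1). The lists differ in CpG content: 34 of the 37 other homeobox genes and 19 of the 20 regulators had CpG-rich promoters, of which 15 and 19 had a shared peak, beside 91.8% of all CpG-rich genes. Of the 7 CpG-rich TALE genes 6 had one. Over all coding genes the share was 61.7%, and no test of the lists was made.

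**Figure D1:**
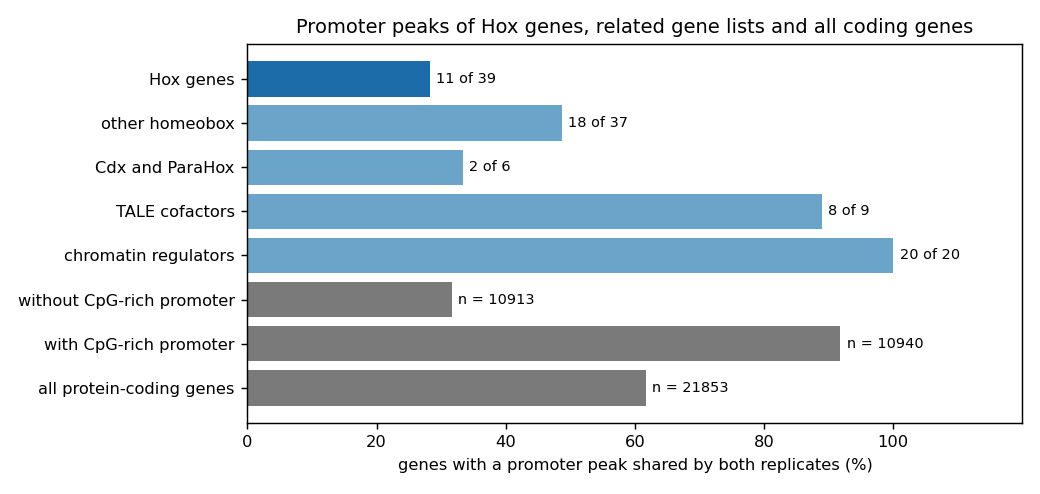
Percent of genes with a promoter peak shared by both replicates. The top bar is the Hox genes (11 of 39), the lighter bars are related gene lists, and the grey bars are all protein-coding genes without (31.6%) and with (91.8%) a CpG-rich promoter and all together (61.7%). The Hox bar is the shortest of the 8.

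Although most promoters were empty, the clusters as a whole held more peaks per length than the genome. Replicate 1 had 59 peaks in the 4 clusters and replicate 2 had 43, of which 35 replicate 1 peaks were shared. That is 7.12 shared peaks per 100 kb in the Hox clusters, against 3.81 over the main chromosomes. The clusters are also dense in genes, with 8.54 protein-coding genes per 100 kb against 0.802. Counted per coding gene, the clusters had 0.833 shared peaks and the main chromosomes 4.76. Peaks outside promoters were denser as well, at 4.68 per 100 kb in the clusters and 2.89 over the main chromosomes. In replicate 1 alone the density was 12.0 peaks per 100 kb in the clusters and 5.66 in the genome, and in replicate 2 alone 8.74 and 5.11.

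Hotspots gave the same order. They covered 2.69% ± 0.0715 of cluster bases (SD, n = 2) and 1.78% ± 0.0806 of the main chromosomes. By replicate the cover was 2.64% and 2.74% in the clusters, against 1.72% and 1.84%. The SD over all 4 clusters together hides opposite shifts between replicates 1 and 2. Hoxb went from 2.93% to 3.70%, and Hoxc from 1.72% to 0.979%. In the single clusters the cover was 3.24% ± 0.0819 in Hoxa, 3.31% ± 0.550 in Hoxb, 1.35% ± 0.525 in Hoxc and 2.57% ± 0.0927 in Hoxd. Hoxc was the one cluster with a mean below the genome, and its replicates differed widely: replicate 1 had 1.72% in Hoxc and 1.72% in the genome, and replicate 2 had 0.979% and 1.84%. The median width of a hotspot was 240 and 287.5 bp in the clusters, close to 254 and 266 bp over the main chromosomes. The widest cluster hotspot of both replicates lay between Hoxb5 and Hoxb4, with 563 bp in replicate 1 and 894 bp in replicate 2. At the upper limit of the deposited −log10 q-value of 100 were 26 of 57 cluster hotspots in replicate 1 and 19 of 42 in replicate 2, shares of 45.6% and 45.2%, beside 45.9% and 43.5% of all hotspots.

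**Figure D2:**
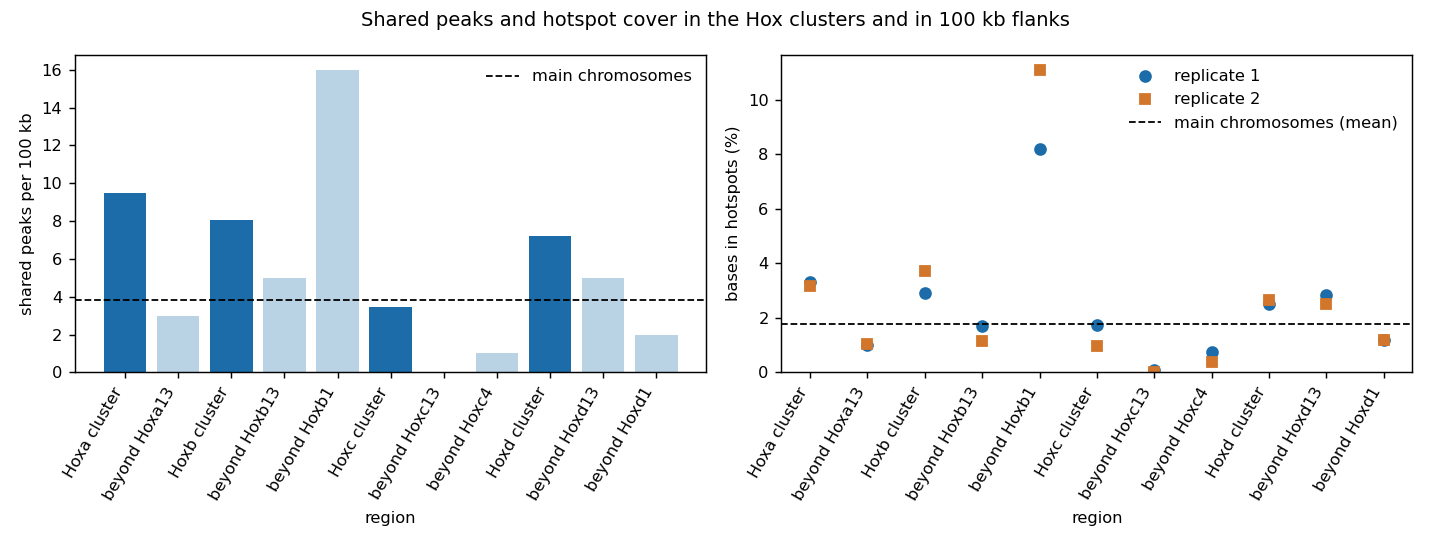
Left, shared peaks per 100 kb in each Hox cluster (dark bars) and in 100 kb flanks, named by the Hox gene at that end (pale bars). Right, percent of bases in hotspots in replicate 1 (circles) and replicate 2 (squares). Dashed lines are the main chromosomes (3.81 shared peaks per 100 kb, 1.78% of bases). Hoxa, Hoxb and Hoxd lie above the lines and Hoxc below, and the region beyond Hoxb1 has the highest values.

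The Hoxa cluster had 10 shared peaks (9.50 per 100 kb), and all 10 replicate 2 peaks there were shared, against 10 of 16 in replicate 1. Of the 10 shared peaks, 7 were at promoters. Besides the Hoxa13 and Hoxa4 promoters, its 3 strongest by the lower of both scores included chr6:52257056-52257205 between Hoxa11 and Hoxa13, with 105 and 91, in an exon of the unclassified transcript 9530018H14Rik. The longest stretch of Hoxa with no peak in either replicate was 16.43 kb and held the TSS of Hoxa11.

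The Hoxb cluster had 14 shared peaks (8.05 per 100 kb), only 2 of them at promoters. Its 3 strongest all lay outside promoters: chr11:96294636-96294785 in an intron of Hoxb6, with 95 and 97, chr11:96311656-96311805 between Hoxb5 and Hoxb4, with 89 and 93, and the CTCF-matched peak between Hoxb9 and Hoxb8, with 105 and 88. The wide space between Hoxb13 and Hoxb9 held 5 shared peaks. One of those, with 74 and 59, had the CTCF consensus and lay in an exon of the long non-coding RNA gene Gm53. In the Hoxb2 region 3 weak shared peaks scored 27 to 42 in replicate 1 and 27 to 36 in replicate 2.

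The Hoxc cluster had the fewest shared peaks, 4 (3.46 per 100 kb), and the replicates disagreed most there, since replicate 1 had 12 peaks (10.4 per 100 kb) and replicate 2 had 4 (3.46 per 100 kb). The strongest was chr15:102987516-102987665 between Hoxc9 and Hoxc8, with 92 and 76. The Hoxc10 promoter followed, and then chr15:102999236-102999385, 61 and 42, in introns of Hoxc5 and Hoxc6. The longest peak-free stretch of any Hox cluster was here, 45.4 kb with the TSSs of Hoxc11, Hoxc12 and Hoxc13, the posterior end.

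The Hoxd cluster had 7 shared peaks (7.23 per 100 kb), and just 1 was a promoter peak, that of Hoxd1. The strongest was chr2:74715876-74716025 between Hoxd8 and the main TSS of Hoxd4, with 103 and 102, which holds the CTCF consensus. It lay in an exon of the antisense RNA Hoxd3os1 and in introns of Hoxd3 and Hoxd4. Next came the peak between Hoxd9 and Hoxd8, with 84 and 71, and the CTCF-matched peak between Hoxd13 and Hoxd12, with 73 and 57. A 33.35 kb stretch with no peak in either replicate held the main TSSs of Hoxd3 and Hoxd4.

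**Figure D3:**
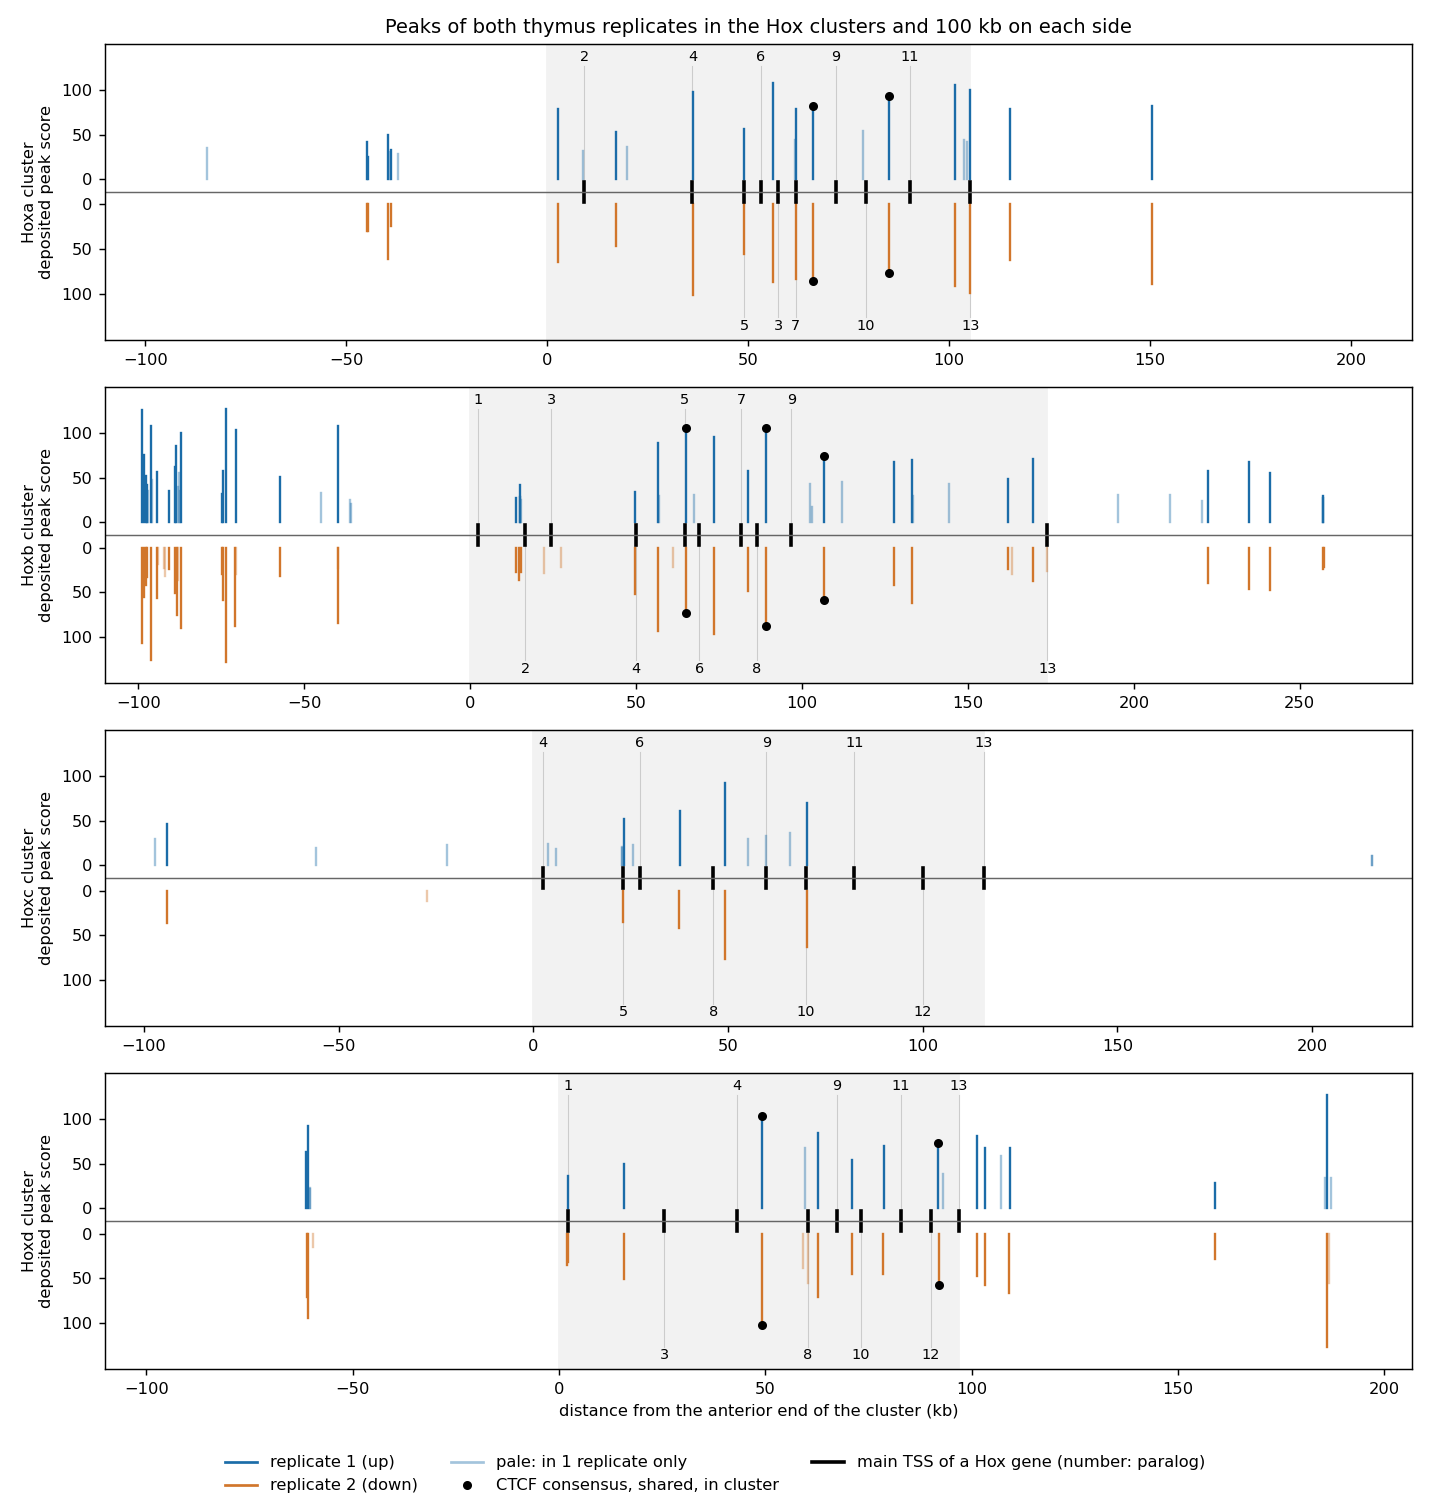
Peaks in and around the 4 Hox clusters, drawn from the anterior end of each cluster (x axis in kb, the cluster shaded). Lines rise with the deposited score in replicate 1 (blue, up) and replicate 2 (orange, down), pale lines are peaks in 1 replicate alone, dots mark the 7 shared cluster peaks with the CTCF consensus, and black ticks are main TSSs numbered by paralog. The map shows the empty posterior end of Hoxc (45.4 kb) and the crowded region beyond Hoxb1 (16 shared peaks).

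Some shared peaks lay near the start of non-coding genes. Those with one within 1000 bp included the antisense RNAs Gm15050, Hoxb3os and Hoxd3os1, the transcript 9530018H14Rik, and Haglr, whose start faces Hoxd1 and whose peak is that of the Hoxd1 promoter. The microRNA genes Mir196a-1 and Mir615 each had 2 peaks near the start in replicate 1 and none in replicate 2. The microRNA genes Mir10a, Mir10b, Mir196a-2 and Mir196b, and Hotair, a long non-coding RNA in Hoxc known from work on Polycomb, had none in either.

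The CTCF consensus was present in 7 of the 35 shared cluster peaks (20%), beside a background of 18.2% of all 103943 shared peaks. In equally wide windows placed 1000 bp from the peaks and free of any peak it was found in 1 of 68 windows (1.47%) around the cluster peaks and in 2.25% of windows around all shared peaks. Hoxb had 3 of the 7, Hoxa 2, Hoxd 2 and Hoxc none. On orientation, which is known to matter for loops, 5 matches lay on the strand of Hox transcription and 2 on the opposite one. Cluster peaks with the consensus had median scores of 93 and 76, against 68.5 and 51.5 for the 28 without it. Over all shared peaks the same medians were 67 and 53 with the consensus, and 59 and 52 without it. A match is not a bound site, and none of the 35 cluster peaks met a stricter form in which the last 2 free bases must be G, a form found in 3.77% of all shared peaks.

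The Hoxc peaks illustrate how the count rests on the pattern: with 1 of the 7 fixed bases allowed to differ, all 4 of them matched. So did 28 of the 35 cluster peaks (80%), beside 58.8% of all shared peaks, and 45.6% of the windows around the cluster peaks, beside 27.9% around all. This looser search was added after the data were seen.

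Of the other patterns searched on both strands, the CCAAT box (CCAAT), a promoter element, was in 14 of 35 cluster peaks (40%) and in 25% of their flanking windows, against 15.6% of all shared peaks and 18.4% of their windows. The site of RUNX factors (TGTGGT), main regulators of T cells, was in 3 of 35 (8.57%) and in 2.94% of their flanking windows, against 17.9% of all shared peaks and 11.4% of their windows. The joint HOX and PBX pattern (TGATNNAT) was in 2 of 35 (5.71%), among them the Hoxa4 promoter, and in 4.41% of their flanking windows, against 3.0% of all shared peaks and 6.40% of their windows. The pattern of NRF1, a factor of housekeeping promoters, was in 0 of 35, against 1.44% of all shared peaks.

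**Figure D4:**
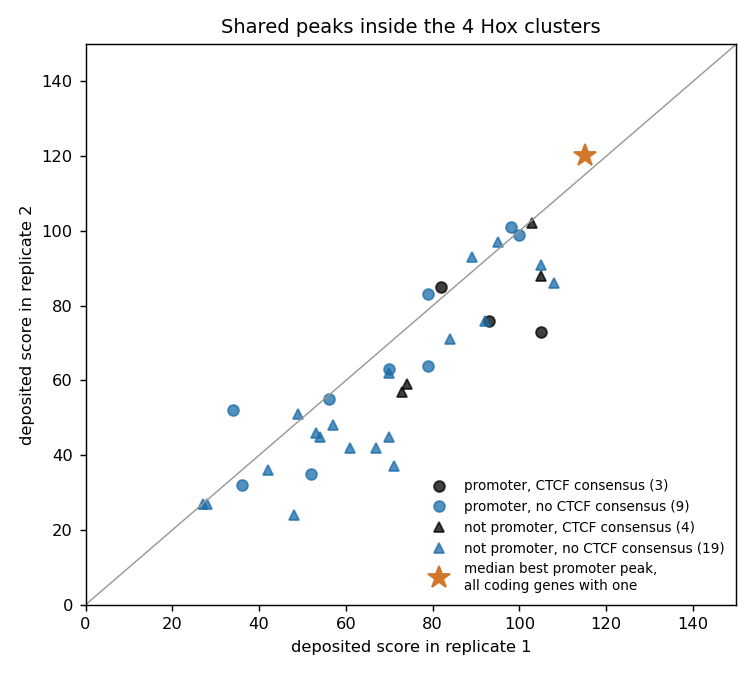
Deposited scores of the 35 shared peaks in the Hox clusters, replicate 1 on the x axis and replicate 2 on the y axis. Circles are promoter peaks, triangles others, black those with the CTCF consensus, and the star is the median best promoter peak over all coding genes with one (115 and 120). Most points lie under the diagonal, and none reaches the star.

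The replicates ordered the cluster peaks alike, with Spearman's rho of 0.884 over the 35 peaks, which share libraries and clusters. Replicate 1 scored higher in 27, replicate 2 in 7, and 1 was equal, beside 65.4% of all shared peaks with a higher score in replicate 1, with a median difference (replicate 1 minus replicate 2) of 9 against 5 over all shared peaks. Cluster peaks had medians of 71 and 59, against 60 and 52 over all shared peaks. The order was turned for promoter peaks, with 79 and 68.5 over the 12 of the clusters and 82 and 85 over all. Outside promoters the 23 cluster peaks had 70 and 51, and all others 56 and 47. The 24 cluster peaks of replicate 1 that were not shared had a lower median of 32.5 (highest 67), and the 7 of replicate 2 one of 28 (highest 55). Medians of unshared peaks over the genome are not given here. In the clusters 59.3% of replicate 1 peaks and 83.7% of replicate 2 peaks were shared, beside 67.3% and 74.8% over the main chromosomes.

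Outside the clusters, the 100 kb beyond Hoxb1 stood out with 16 shared peaks and a hotspot cover of 9.65% ± 2.05. Of those peaks, 15 were nearest to Skap1, which encodes an adaptor of T cell receptor signalling and had a promoter peak of 108 and 125. The other 7 flanks held 0 to 5 shared peaks. None lay beyond Hoxc13 and 1 beyond Hoxc4, so the Hoxc cluster stood in a region with few peaks. Beyond Hoxd13 there were 5, of which 3 were nearest to Evx2, a homeobox gene at the posterior end of Hoxd, and 2 to Lnpk (promoter 126 and 127). Evx2 and its relative Evx1, beyond Hoxa13, had no shared promoter peak.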

How the data were processed

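The authors deposited, for each of 2 thymus replicates, peaks with a whole-number score and hotspots with a −log10 q-value, on mm10 per the labels. The text beside the deposited files says that each list comes from 1 library. The sources used here name no caller, aligner or depth. The hotspots' display score was not used. Annotation was GENCODE M21 (54361 coding start sites), with sequence from GRCm38.

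Members and lists were chosen with earlier results of these data known. Shared peaks, promoter peaks (1000 bp), density, hotspot cover and motif matches were counted as defined in the report, with SD over 2 replicates and no test. Genes named are Hox genes, genes within 100 kb of a cluster and fixed lists. Peaks named by rule are the best promoter peak of each Hox gene, the 3 strongest of each cluster and those with the CTCF consensus. Peaks given outside that rule include others at Hoxa3, Hoxa7, Hoxa10 and the Hoxb2 region. Promoter peaks that were not shared, and peaks near non-coding or flanking genes, are also outside it. Alternatives were other overlaps, windows, start sites, regions and patterns, stronger or equal numbers of peaks, hotspots, and each replicate alone. Some items are not reported here. Steps were tested on simulated data. Software was matplotlib 3.10.9, scipy 1.17.1, pandas 2.3.3 and numpy 2.4.6 under Python 3.11.15.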

Additional observations from a re-analysis of the deposited data

How the results depend on the processing

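The count of 11 Hox genes with a shared promoter peak was 8 with the stronger 50% of peaks, beside 56.4% of all coding genes. It was 10 to 12 with a 50% reciprocal overlap, a 500 bp window, equal numbers of peaks, 1 TSS per gene or hotspots. The background share in those settings was 57.7% to 62.8%. In single replicates the Hox count was 13 or 14, beside 64.1% and 64.7%. With a window of 2500 bp it was 19, beside 65.3%. The density of 7.12 per 100 kb was 5.16 to 7.12 with both replicates, and 8.74 to 12.0 with 1 left out. It was 5.49 in the stronger 50% of peaks, a setting with no density over the main chromosomes given here. Hotspot cover of 2.69% was 1.65% for hotspots at the upper limit, 2.43% with 100 kb on each side, and 2.64% to 2.74% in single replicates. The cover of the main chromosomes by hotspots at the limit is not given here. The 1.65% therefore cannot be set against the 1.78% for all hotspots. The CTCF share of 20% was 0% with the stricter pattern and 80% with 1 mismatch (added after the data were seen). Over all shared peaks the share was 18.2%, with 3.77% for the stricter pattern and 58.8% for 1 mismatch. In the clusters it was 25.9% in the stronger 50% of peaks and 15.3% to 16.3% in single replicates. No share over all peaks is given for those settings, so they show neither an excess nor a lack. The rho of 0.490 over 11 genes was 0.217 over 8 in the stronger 50% of peaks, 0.255 over 19 with 2500 bp, and 0.104 to 0.350 in single replicates. The cause of these differences was not tested, beyond the fewer or more peaks that each alternative counts. No paired analysis was possible because there is 1 group. Depth is unknown, so a missing peak does not show closed chromatin.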
